A study of Arabidopsis thaliana with 16 samples.

Results

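Shoots of phyB-1 plants were compared with shoots of the Landsberg erecta (Ler) wild type at 16 °C. The comparison takes the 4 arrays labelled phyB-1 at 16 °C and the 4 arrays labelled Ler at 16 °C, which are 8 of the 16 arrays of the study. The other 8 arrays hold the same genotypes at 22 °C, 4 of each. phyB-1 is a mutant allele of the PHYB gene and is set against its parental accession Ler; the plants were grown on soil and all parts except the roots were taken. Each genotype and temperature was sampled at 4 and 10 h with 2 replicates, numbered 1 and 2 in the labels, on Affymetrix ATH1 arrays. The event from which the hours count is not stated. By the labels, all groups share 5 days of cold, dark stratification of the seed. The growth protocol, worded alike for every sample, then gives 11 days at 16 °C and 21 days at 22 °C, which leaves the history of the 16 °C plants uncertain. The transcript of PHYB itself was not analysed here, as no probe set carries its name.

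Phytochrome B is a photoreceptor that senses red and far-red light and also temperature. In its active form it enters the nucleus and promotes the breakdown of PHYTOCHROME INTERACTING FACTORS, transcription factors that switch on genes of auxin synthesis and cell elongation. Plants that lack it grow tall with pale leaves and flower early, as if shaded, and phytochrome B is also known to hold back part of the cold response in Arabidopsis. The title of the study asks about the control of phytochrome B action by temperature.

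The 2 arrays labelled phyB-1 16 °C replicate 2 looked like each other's time. The array labelled 4 h correlated at 0.861 with replicate 1 of its own label and at 0.946 with replicate 1 of the other time, and the array labelled 10 h at 0.876 and 0.953. The Ler replicate 2 arrays at 16 °C stood with their own labels, at 0.96 against 0.889 and at 0.963 against 0.855. AT1G73600, which encodes a methyltransferase of phosphocholine synthesis and differs widely between the times, shows the pattern. It read 1431 at 4 h and 143 at 10 h in replicate 1 of phyB-1 and 136 at 4 h and 1359 at 10 h in replicate 2, against 2184 and 221 in replicate 1 and 2731 and 211 in replicate 2 of Ler. Each value below was therefore averaged over both times within a replicate number, which an exchange of the 2 arrays leaves as it is. The 2 arrays that share a genotype, temperature and replicate number are called a replicate set, so that phyB-1 and Ler have 2 sets each at 16 °C. Array readings are listed with the array labelled 4 h first and the array labelled 10 h second.

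The values are linear intensities per probe set as the authors deposited them, and differences are phyB-1 minus Ler on the scale log2(intensity + 16), which understates differences of dim probe sets. Median intensities were 32.7 to 41 on the phyB-1 arrays and 30.7 to 39.5 on the Ler arrays at 16 °C, and lower quartiles, which mark the level of background, were 5.89 to 11.5 and 6.74 to 11.1. Photosynthesis genes were bright on all arrays, as in green shoots. The 11 named members of their list summed to 33008 to 46638 in phyB-1 and 35531 to 59011 in Ler. Among them CP1 and CP5 entered by symbol and are not known as photosynthesis genes. The 4 named root markers summed to 221 to 315 in phyB-1 and 120 to 276 in Ler, the 6 floral ones to 79.6 to 168 and 55.6 to 112, and the 3 seed storage ones to 16.7 to 34.9 and 17.4 to 31.9. Array controls give ratios of 3' to 5' signal, which tend to increase as RNA degrades. For GAPDH this ratio (log2) was 1.03 and 1.63 in set 1 of phyB-1 and 0.787 and 0.507 in set 2, against 0.707 and 0.728 in set 1 and 0.631 and 0.531 in set 2 of Ler. For actin it was 3.17 to 3.54 in phyB-1 and 3.05 to 4.26 in Ler.

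Few transcripts separated the genotypes at 16 °C. When the replicate number entered the fit as a block, 29 probe sets passed (0.212% of those tested), 26 higher and 3 lower in phyB-1. In the fit without the block, all those that passed were higher in phyB-1. LTI30, the gene of a dehydrin that accumulates in cold-treated plants, was the 1 named gene among them. Of 13648 probe sets tested, 3 (0.022%) passed in limma's test without the block (adjusted p under 0.05 and the same direction in both sets). In that fit 651 had an unadjusted p under 0.05, against 1437 with the block. The other two were the probe sets 259417_at and 254452_at, which have no gene name here. Nothing in the labels says that the replicates came from separately grown plants, so p-values measure the spread between these samples, which may be technical. In whole shoots, fewer cells of a type and less RNA per cell cannot be told apart.

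LTI30 read 285 and 533 in set 1 and 547 and 390 in set 2 of phyB-1, against 150 and 195 in set 1 and 135 and 237 in set 2 of Ler. Every phyB-1 array was above every Ler array, as in 1.47% of all tested probe sets. LTI30 rose 2.30-fold, by log2 1.20 ± 0.16 (SE, 2 sets each, limma adjusted p = 0.043), with 1.11 in set 1 and 1.29 in set 2. Its mean was 439 ± 125 in phyB-1 and 179 ± 46.1 in Ler (SD, n = 4 arrays each). With the replicate number as a block the adjusted p was 0.0055. The size of the difference held better than its call. In 20 alternatives it was 1.03 to 1.32, but the adjusted p was under 0.05 in only 6 of them. The call was lost with offset 1 (0.089), no filter (0.086), median centring (0.40), all 16 arrays (0.067), the 16 °C arrays alone (0.29) and no intensity trend (0.096). It was also lost without any 1 set other than set 1 of phyB-1 at 16 °C (0.071 to 0.26). The highest of these came without set 2 of phyB-1, which holds the 2 arrays of disputed time, where LTI30 stood at 1.09.

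259417_at read 158 and 73.8 in set 1 and 38.9 and 180 in set 2 of phyB-1, against 2.05 and 0.872 in set 1 and 11.4 and 3.80 in set 2 of Ler. It was higher by log2 2.50 ± 0.21 (limma adjusted p = 0.00096). 254452_at read 90.5 and 69.5 in set 1 and 69.9 and 88.0 in set 2 of phyB-1, against 15.1 and 2.96 in set 1 and 2.01 and 0.852 in set 2 of Ler, and was higher by log2 2.21 ± 0.28 (limma adjusted p = 0.033). In both, all phyB-1 arrays were far above all Ler arrays. The Ler readings lay mostly at background, and a smaller offset than 16 would give larger differences. At 22 °C 254452_at averaged 7.43 in Ler, and 259417_at averaged 26.2 in Ler and 343 in phyB-1. The mean by which each was kept for testing thus came mainly from phyB-1, which favoured its call. Both probe sets were higher in phyB-1 at 22 °C too, by log2 3.04 and 1.89. In all, 1 probe set (259417_at) was called at 22 °C (0.00733% of those tested), and 24 with the replicate number as a block (0.176%).

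The number of calls rested on single sets, and so did the direction of a call. With a set of the comparison left out, agreement between sets could not be asked, so a call needed only the adjusted p. Such counts are not called alike with the 3 above. A probe set without a gene name differed by log2 -1.40 in set 1 and by 1.26 in set 2. The fit put it at -1.49 without set 2 of phyB-1, where it was called lower. Without set 1 of phyB-1 the fit put it at 1.35, where it was called higher. Without set 1 of phyB-1, 44 probe sets were called, all higher; without set 2 of phyB-1, 2 were called, 1 higher and 1 lower; without set 1 of Ler, 1; and without set 2 of Ler, 2. When the replicate number entered the fit as a block, 29 probe sets were called (0.212% of those tested), 26 higher and 3 lower in phyB-1, including all 3 above. Of the 29, 7 had 1 gene name. LTI30, AT5G46780, AT5G01870, AT3G53980, AT5G05960 and MYC3 were higher and AT2G37220 was lower. With the block and without set 2 of phyB-1, 2 probe sets were called, 1 higher and 1 lower. Across all tested probe sets the differences of set 1 and set 2 correlated at 0.261, as a description, over points that share arrays within each set.

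Regardless of the test, 79 probe sets were at least 1.5-fold higher in phyB-1 in both sets (0.579%) and 39 at least 1.5-fold lower in both (0.286%), while 18 passed that size in opposite directions (0.132%). With each array centred on its median the split was 55 higher and 58 lower, and after quantile normalization 67 and 45. Of all tested probe sets, 31.2% were higher and 26.6% lower in both sets. The following named genes are the 12 of smallest p in each direction among those with the same direction in both sets and at least 1.5-fold difference, so their sizes and agreement between sets were set by that choice; LTI30 is the 1 that passed without the block. All 4 phyB-1 arrays were above all 4 Ler arrays in 10 of the 12 higher genes (1.47% of all tested probe sets). All 4 were below in 7 of the 12 lower ones (1.27% of all tested probe sets). The choice by smallest p on these same arrays favours such separation, so nothing is read from these counts.

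**Figure D1:**
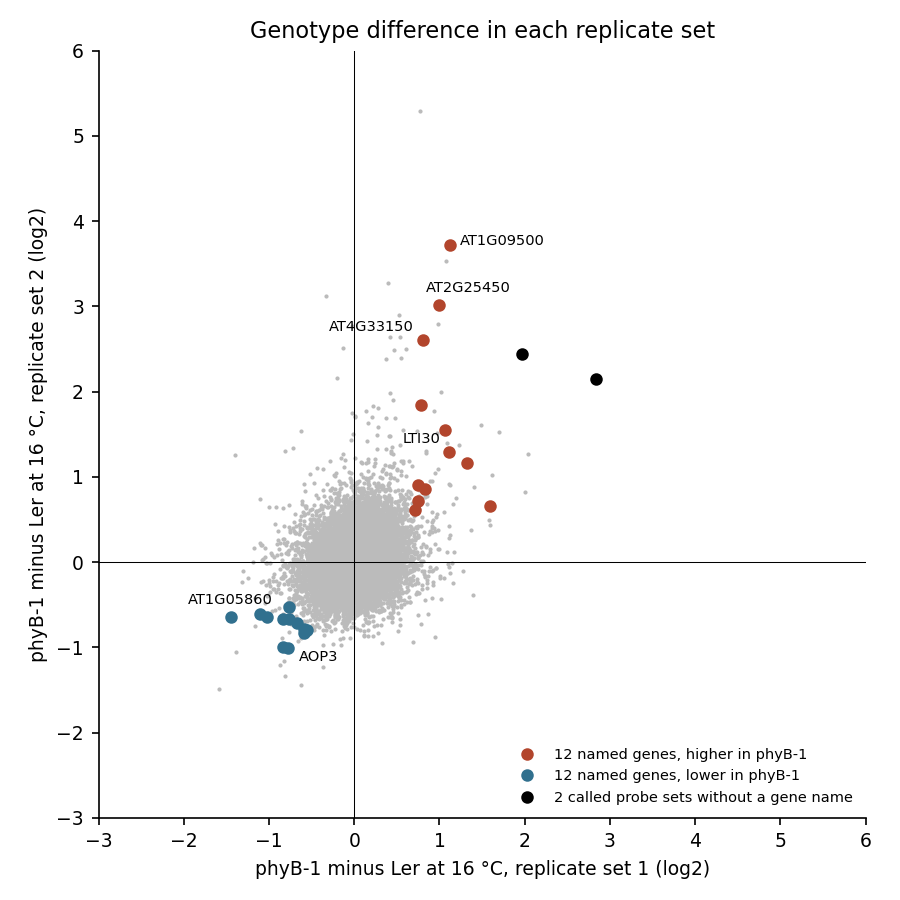
Difference phyB-1 minus Ler at 16 °C in replicate set 1 (x axis, log2) against replicate set 2 (y axis, log2), 1 grey point per tested probe set. The 12 named genes higher in phyB-1 (red) and the 12 lower (blue) lie away from zero in both sets, LTI30 near the diagonal at 1.11 and 1.29, and AT1G09500, AT2G25450 and AT4G33150 far higher in set 2 than in set 1. The black points are 259417_at and 254452_at.

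Of the genes higher in phyB-1, a pair are neighbours in the genome. MYC3 encodes a bHLH transcription factor of the jasmonate pathway, and AT5G46780 encodes a protein of the VQ motif family. Their loci lie on chromosome 5 with 1 protein-coding gene between them, the only pair within 10 genes of each other among the 300 pairs of the 25 genes named by p or called with the block. MYC3 read 133 and 187 in set 1 and 232 and 194 in set 2 of phyB-1, against 76.2 and 87.2 in set 1 and 96.8 and 124 in set 2 of Ler. All 4 phyB-1 arrays were above all 4 Ler arrays, though by little at 133 against 124. The difference was log2 0.85 ± 0.19, with 0.84 in set 1 and 0.86 in set 2 (limma adjusted p = 0.42; 0.045 with the block). AT5G46780 read 75.3 and 169 in set 1 and 203 and 88.0 in set 2 of phyB-1, against 19.9 and 59.3 in set 1 and 47.5 and 55.5 in set 2 of Ler. The groups did not overlap here either. It was at log2 1.24 ± 0.20, with 1.32 and 1.16 in the sets (adjusted p = 0.083; 0.020 with the block). At 22 °C MYC3 was at 0.80 and AT5G46780 at 0.59. Whether one probe set reads the transcript of the other gene was not tested.

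The other three named genes called as higher only with the block were AT5G01870, AT5G05960 and AT3G53980, each known as a gene of the lipid transfer protein superfamily of small secreted proteins. They were chosen by their calls, and the share of that superfamily called was not computed. AT5G01870 read 256 and 213 in set 1 and 306 and 311 in set 2 of phyB-1, against 147 and 114 in set 1 and 56.1 and 96.7 in set 2 of Ler. Its phyB-1 arrays all exceeded its Ler arrays, and the gap was wider in set 2 (log2 1.85) than in set 1 (0.78). Its mean difference was 1.31 ± 0.23 (limma adjusted p = 0.11; 0.030 with the block). AT5G05960 read 162 and 128 in set 1 and 110 and 151 in set 2 of phyB-1, against 97.2 and 64.7 in set 1 and 58.3 and 64 in set 2 of Ler. The groups were apart, with 0.74 in set 1 and 0.91 in set 2 (mean 0.83 ± 0.18, adjusted p = 0.40; 0.030 with the block). AT3G53980 read 47.2 and 15.8 in set 1 and 23.5 and 56.5 in set 2 of phyB-1, against 5.69 and 5.10 in set 1 and 3.71 and 1.02 in set 2 of Ler. The Ler readings were at background on every array, and AT3G53980 averaged 5.84 in Ler at 22 °C. The mean by which it was kept for testing thus came mainly from phyB-1. Its difference was 1.31 ± 0.28 (adjusted p = 0.31; 0.037 with the block). AT5G05960 and AT3G53980 were further apart at 22 °C, at 1.24 and 1.99.

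THI2.2, the gene of a small antimicrobial thionin, was higher in both sets as well but by unequal amounts. It read 132 and 82.8 in set 1 and 48.0 and 89.4 in set 2 of phyB-1, against 57.3 and 5.84 in set 1 and 47.0 and 26.7 in set 2 of Ler. The groups overlapped, since 1 phyB-1 array of set 2 fell below 1 Ler array of set 1. The difference was log2 1.13 ± 0.27 (1.60 in set 1 and 0.66 in set 2, limma adjusted p = 0.51), and it was 1.02 at 22 °C. AT3G24190 (0.66 ± 0.15) and AT3G03790 (0.73 ± 0.18) had smaller differences that were alike in the sets.

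**Figure D2:**
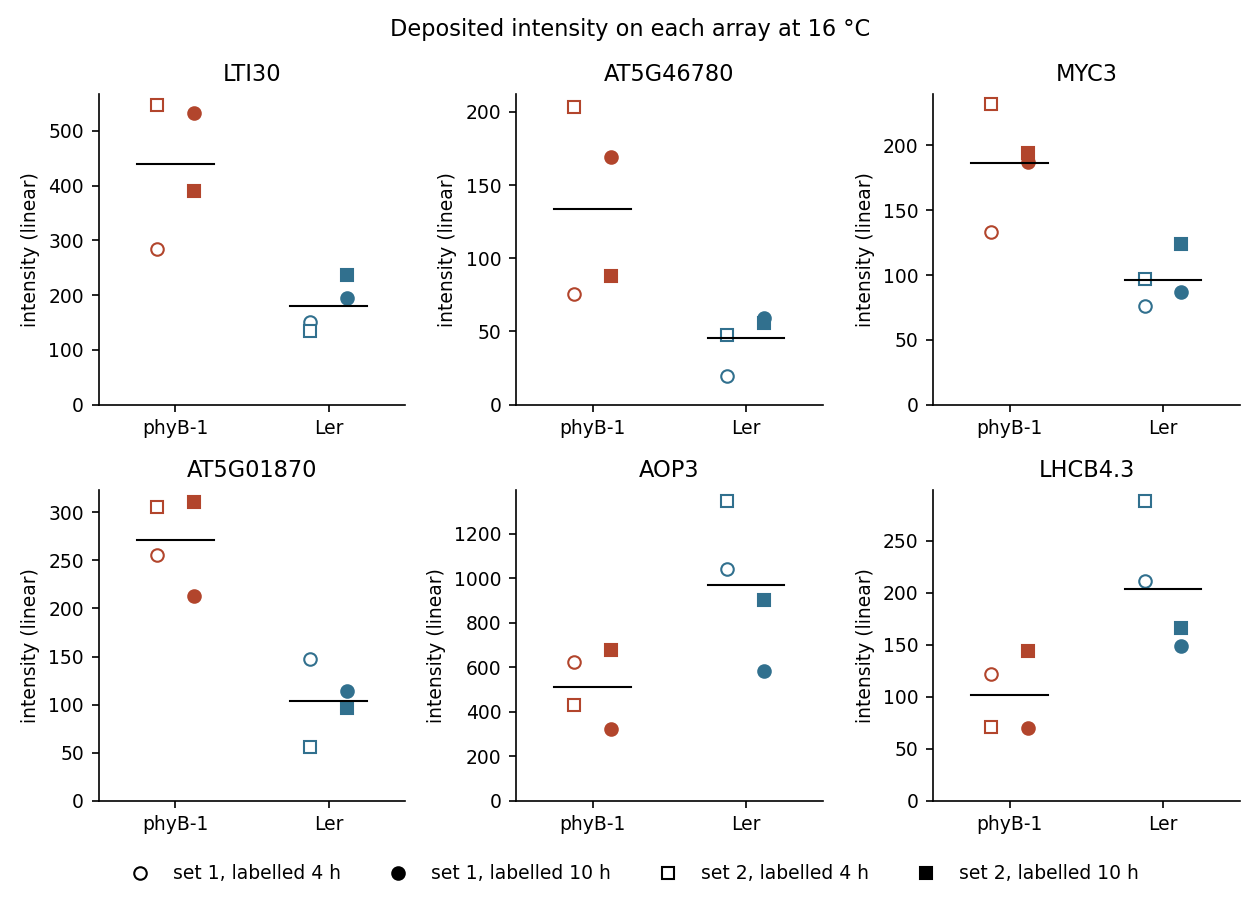
Deposited intensity (y axis, linear, from 0) of 6 genes on each of the 8 arrays at 16 °C, phyB-1 left and Ler right; circles are set 1, squares set 2, open symbols the arrays labelled 4 h, filled symbols those labelled 10 h, and lines the means of 4 arrays. LTI30, AT5G46780, MYC3 and AT5G01870 do not overlap between genotypes, LHCB4.3 lies lower in phyB-1 without overlap (highest phyB-1 array 144, lowest Ler array 149), and AOP3 overlaps.

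Leaving out set 1 of phyB-1 gave the 44 calls above, which include the 3 probe sets called with all sets. They were called on set 2 of phyB-1 against both sets of Ler. All tested probe sets had a median of 0.013 in set 1. The called probe sets had a median difference of 1.79 in set 2, which was set by their choice. Their differences in set 1 are no independent check, as set 1 of Ler entered the calls. In set 1 the median of the called probe sets was 0.53. There 5 of them went the opposite way, and 2 (259417_at and AT5G46780) were larger than in set 2. Of the 44, 15 had 1 gene name. The 3 that follow were chosen after their values were seen and were high chiefly on the 2 arrays of set 2. OSM34, the gene of an osmotin-like protein, read 12.5 and 1.29 in set 1 and 126 and 212 in set 2 of phyB-1, against 1.08 and 0.760 in set 1 and 1.44 and 3.79 in set 2 of Ler. ALDH7B4, an aldehyde dehydrogenase gene, read 230 and 152 in set 1 and 511 and 795 in set 2 of phyB-1, against 175 and 147 in set 1 and 201 and 169 in set 2 of Ler. IVD, the gene of isovaleryl-CoA dehydrogenase in leucine breakdown, read 35.3 and 48.2 in set 1 and 173 and 125 in set 2 of phyB-1, against 40.7 and 41.1 in set 1 and 49.8 and 57.8 in set 2 of Ler. In all 3 genes the set 2 arrays of phyB-1 were far above the other 6 arrays, and set 1 of phyB-1 was near or inside the Ler range. OSM34 was at or near background on those 6 arrays, at 0.760 to 12.5. Its mean at 16 °C thus came mainly from set 2 of phyB-1. The filter by mean intensity therefore favoured its call. How many of the 44 were kept for testing in this way was not computed. At 22 °C OSM34, ALDH7B4 and IVD were at log2 0.11, 0.10 and -0.07. Over the 44 probe sets the median difference at 22 °C was 0.13, and 31 of 44 were higher there, against 53.8% of all tested probe sets.

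Of the 12 higher genes, LTI30, AT5G46780 and AT5G01870 are also among the 44. So are AT4G33150, AT2G25450 and AT1G09500, which were far higher in set 2 than in set 1. AT4G33150 encodes the enzyme that begins lysine breakdown (LKR/SDH). It read 83.3 and 87.0 in set 1 and 234.2 and 310.4 in set 2 of phyB-1, against 29.5 and 57.6 in set 1 and 21.1 and 43.1 in set 2 of Ler. All phyB-1 arrays were above all Ler arrays, most widely in set 2, with log2 0.80 in set 1 and 2.61 in set 2 (mean 1.71 ± 0.38, limma adjusted p = 0.38). AT2G25450, a 2-oxoglutarate-dependent dioxygenase gene, read 44.4 and 23.9 in set 1 and 144 and 125 in set 2 of phyB-1, against 4.02 and 14.6 in set 1 and 1.21 and 3.82 in set 2 of Ler. The genotypes did not overlap, and the difference was 0.99 in set 1 and 3.02 in set 2. AT1G09500 read 60.8 and 6.58 in set 1 and 228 and 194 in set 2 of phyB-1, against 1.63 and 4.88 in set 1 and 1.88 and 0.563 in set 2 of Ler. Its 10 h array of set 1 in phyB-1 was at background like the Ler arrays, and the sets gave 1.12 and 3.72. AT2G25450 averaged 5.90 in Ler at 16 °C, 6.21 in phyB-1 at 22 °C and 2.16 in Ler at 22 °C, and AT1G09500 averaged 2.24, 11.2 and 2.43. Probe sets were kept for testing by their mean over all arrays, which in these genes came mainly from phyB-1 at 16 °C. Their separation was thus favoured by that filter. With all sets, AT4G33150, AT2G25450 and AT1G09500 did not pass (limma adjusted p = 0.38 to 0.51), and at 22 °C they were at 0.06, 0.27 and 0.53. The GAPDH ratio set the other phyB-1 set apart, with its 2 highest values in set 1; its part in these differences was not tested.

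No gene with a name passed as lower in phyB-1 without the block, and 1 passed with it. That gene, AT2G37220, which encodes a chloroplast RNA-binding protein, read 843 and 1241 in set 1 and 1479 and 1109 in set 2 of phyB-1, against 1591 and 2162 in set 1 and 2198 and 2607 in set 2 of Ler. The genotypes did not overlap, with log2 -0.85 in set 1 and -0.89 in set 2 (mean -0.87 ± 0.28, limma adjusted p = 0.85; 0.045 with the block).

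AOP3, which encodes a dioxygenase that modifies glucosinolate side chains and is active in Ler, had the smallest p among the lower genes. It read 622 and 323 in set 1 and 429 and 675 in set 2 of phyB-1, against 1041 and 582 in set 1 and 1347 and 902 in set 2 of Ler. The groups overlapped at the low Ler array of 10 h in set 1, while the mean of each set was lower in phyB-1. The difference was log2 -0.89 ± 0.19 (-0.77 in set 1 and -1.01 in set 2, limma adjusted p = 0.31; 0.054 with the block). At 22 °C AOP3 stood at 0.03.

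LHCB4.3 encodes a minor antenna protein that binds chlorophyll beside photosystem II. It read 122 and 69.5 in set 1 and 70.5 and 144 in set 2 of phyB-1, against 211 and 149 in set 1 and 288 and 166 in set 2 of Ler. All 4 phyB-1 arrays were below all 4 Ler arrays by a narrow margin. It was at log2 -0.92 ± 0.21 (-0.83 and -1.0 in the sets, limma adjusted p = 0.44) and at -0.51 at 22 °C. CCB3, which acts in attaching a haem cofactor to cytochrome b6, read 82.9 and 154 in set 1 and 146 and 140 in set 2 of phyB-1, against 266 and 173 in set 1 and 306 and 180 in set 2 of Ler. The Ler arrays were again all higher, chiefly at 4 h. Its difference was -0.75 ± 0.19 (adjusted p = 0.51).

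The remaining lower genes were AT1G16500 (log2 -0.83), AT1G22690 of the GASA family of gibberellin-regulated peptides (-0.71), AT3G47540 of the chitinase family (-0.69), CW14 (-0.86), AT1G31690 of the copper amine oxidase family (-0.68), AT1G05860 (-1.05), the ESCRT-III subunit gene SNF7.2 (-0.71) and PRA7 of the prenylated Rab acceptor family (-0.64). AT1G73600 was at -0.69 ± 0.16. None passed (limma adjusted p = 0.43 to 0.85). A second probe set of AT1G31690 was at -0.32. AT1G05860 was at background in set 1 of phyB-1, where it read 3.98 and 5.60, and it read 18.2 and 17.5 in set 2, against 49.5 and 33.3 in set 1 and 36.4 and 37.2 in set 2 of Ler. Its groups were apart, more widely in set 1.

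The difference at 22 °C was not part of the rule that chose these genes. The spread between the 22 °C sets still enters the fit, and so the p by which they were ranked. The filter also took the mean over all arrays, 22 °C included. AT3G53980, 259417_at and 254452_at passed it mainly through phyB-1 at both temperatures, which favours the same direction at 22 °C. All 12 higher genes were also higher in phyB-1 at 22 °C, 11 of them in both sets there, where 53.8% of all tested probe sets were higher and 33.7% higher in both sets. Their median difference was 1.22 at 16 °C and 0.58 at 22 °C. Of the 12 lower genes, 11 were lower at 22 °C and 6 in both sets, against 46.2% and 28.2% of all tested probe sets, with medians of -0.73 at 16 °C and -0.25 at 22 °C. Of the 29 probe sets called with the block, 28 had the same direction at both temperatures, against 58.1% of all tested probe sets. With the block, 6 of the 29 were also called at 22 °C, against 0.176% of all tested probe sets. Both calls use the same estimate of the spread, so the calls at 22 °C are no independent check. The genes were chosen for their size at 16 °C, so nothing is read from the smaller medians at 22 °C.

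**Figure D3:**
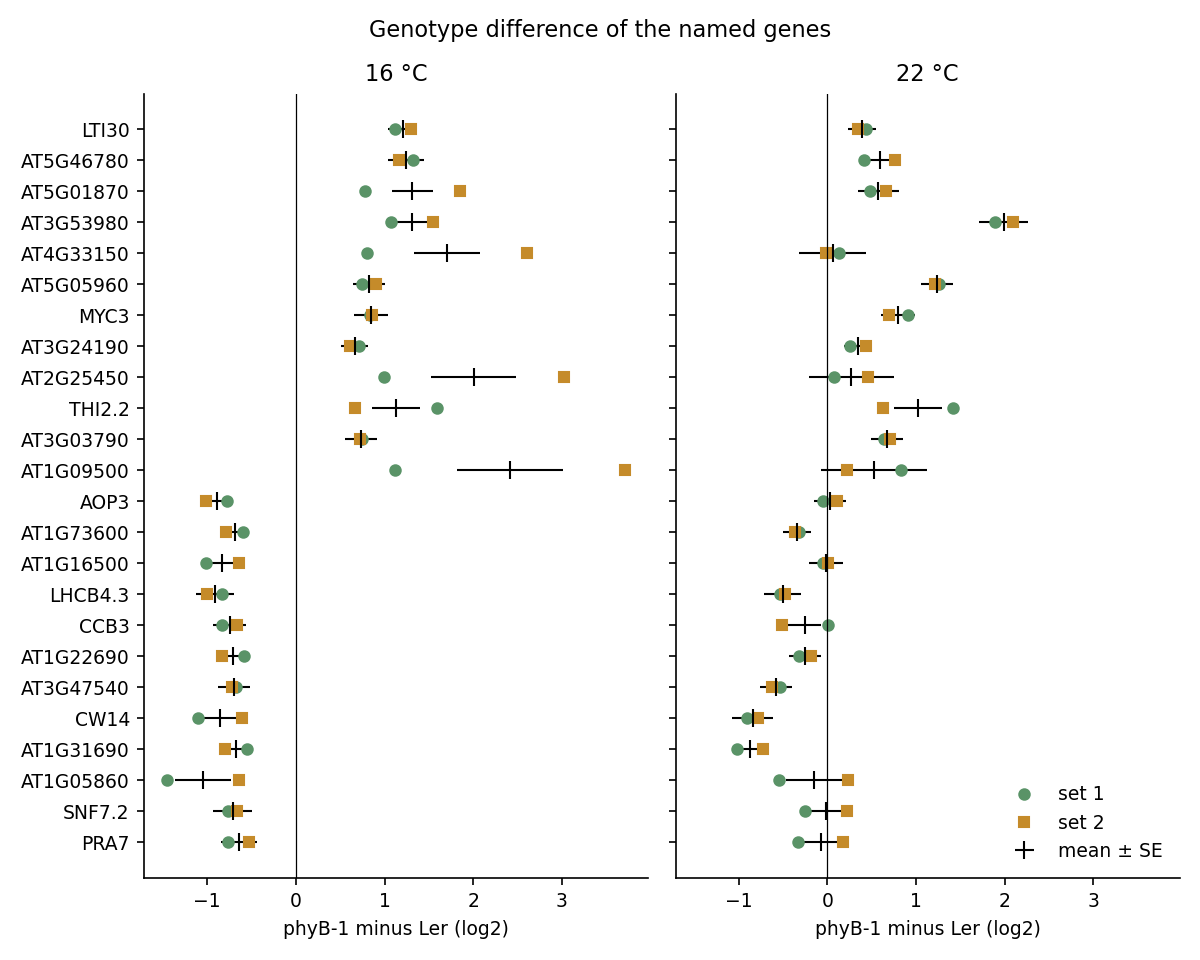
Difference phyB-1 minus Ler (x axis, log2) of the 24 genes named by p, at 16 °C (left) and 22 °C (right); circles are set 1, squares set 2, and bars the mean ± SE of the fit. The 12 upper genes are right of zero at both temperatures, AT4G33150 by only 0.06 at 22 °C, while AOP3 and AT1G16500 are at 0.03 and -0.02 at 22 °C.

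The difference of the differences was tested directly. No probe set passed for the genotype by temperature interaction in limma's fit, where 293 had an unadjusted p under 0.05, or with the block, where 818 did and the smallest adjusted p was 0.44. Without set 1 of phyB-1 at 16 °C, 26 probe sets passed, all with a smaller or lower phyB-1 minus Ler difference at 22 °C. LTI30 was among the 5 named genes of smallest p. At 22 °C it read 53.1 and 49.4 in set 1 and 49.7 and 47.4 in set 2 of phyB-1, against 26.0 and 42.8 in set 1 and 30.5 and 39.1 in set 2 of Ler. The phyB-1 arrays were again all higher, at far lower levels than at 16 °C. The log2 difference of LTI30 was 1.20 at 16 °C and 0.39 at 22 °C, an interaction of -0.81 ± 0.23 (limma adjusted p = 1.00; 0.58 with the block). AOP3 had an interaction of 0.92. AT1G35710, a receptor-like kinase gene, was at 0.27 at 16 °C and -1.14 at 22 °C. AT5G24460 was at 0.59 and -0.56 and AT1G30860 at 0.73 and -0.55, so that both were higher in phyB-1 at 16 °C and lower at 22 °C in both sets, without passing the test.

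Gene lists were read by their counts. They held 162 different tested genes, 1 of which was called (LTI30) and 2 with the block (LTI30 and MYC3). Over all 7284 tested genes with a name, 1 was called, and 6 were called higher and 1 lower with the block. The lists were written with earlier results known, so nothing is read from these counts. Of the cold response and dehydrin list, 6 of 46 genes were tested. Their median difference was 0.48 (0.48 after quantile normalization, 0.39 with median centring). Over all tested probe sets the median was 0.02 (-0.01 after quantile normalization, -0.06 with median centring). Among the 6 genes, 4 were higher in both sets and none lower. STZ, a zinc finger repressor gene of abiotic stress responses, read 29.6 and 26.2 in set 1 and 73.5 and 74.9 in set 2 of phyB-1, against 18.4 and 14.5 in set 1 and 18.2 and 24.5 in set 2 of Ler. Its phyB-1 arrays were all above its Ler arrays, more so in set 2, and it was at log2 0.86 ± 0.33 (limma adjusted p = 0.98). COR27, a cold- and clock-regulated gene, was at 0.67 (0.30 without set 2 of phyB-1) and the dehydrin gene COR47 at 0.28. In set 1 COR27 read 14.9 and 668 in phyB-1, against 1.52 and 546 in Ler. COR47 went opposite ways at the times of set 1, with -0.10 at 4 h and 0.81 at 10 h. COR15A and COR15B, which encode cold-induced chloroplast proteins, went opposite ways in the sets, COR15A at 0.12 in set 1 and -0.13 in set 2 and COR15B at 0.25 and -0.25. At 22 °C the median of the list was 0.10.

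Genes of shade avoidance and auxin, the textbook responses to loss of phytochrome B, gave few members. IAA29, a repressor gene of auxin signalling induced by PHYTOCHROME INTERACTING FACTORS, read 37.2 and 67.7 in set 1 and 28.2 and 25.5 in set 2 of phyB-1, against 16.1 and 19.3 in set 1 and 21.0 and 13.4 in set 2 of Ler. All phyB-1 arrays were above all Ler arrays, with log2 0.99 in set 1 and 0.38 in set 2 (mean 0.68 ± 0.28, limma adjusted p = 1.00), and the difference was 1.30 at 22 °C. The 4 tested shade avoidance genes had a median of 0.09 at 16 °C and 0.42 at 22 °C, and the other three, YUC2, BIM1 and HAT2, went opposite ways in the sets. WES1 (GH3.5), whose product joins auxin to amino acids, read 49.7 and 114 in set 1 and 111 and 108 in set 2 of phyB-1, against 45.2 and 59.5 in set 1 and 23.5 and 45.4 in set 2 of Ler. Only its first phyB-1 array lay inside the Ler range. It was at 0.90 ± 0.23 (adjusted p = 0.51). The 5 tested auxin genes had a median of 0.16, with 3 higher and 0 lower in both sets. The light signalling genes HYH (0.60) and SPT (0.27) were the 2 tested members of the phytochrome and PIF list.

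Cell wall expansion genes were divided. Of 14 tested, 4 were higher and 4 lower in both sets, and the median was 0.02 (-0.04 after quantile normalization, -0.05 with median centring). The expansin gene EXPA15 was at log2 0.66 ± 0.20, with 0.56 in set 1 and 0.75 in set 2 (limma adjusted p = 0.85), and EXPB1 at 0.46. XTH32, a gene of the family that cuts and rejoins xyloglucan, was at -0.36.

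No photosynthesis or pigment gene passed the test. The 10 tested members of the nuclear photosynthesis list had a median of -0.09 (-0.06 after quantile normalization, -0.19 with median centring). Of these members, 2 were higher and 3 lower in both sets. The set medians differed in sign, at 0.05 in set 1 and -0.26 in set 2. Apart from LHCB4.3, the antenna gene LHCB4.2 was at -0.34 and PSBY at -0.12. CP5, among the 2 higher members, was at 0.27, but it entered the list by its symbol and is not known as a photosynthesis gene. Chloroplast-encoded genes were evenly divided, with 20 of 68 higher and 22 lower in both sets and a median of 0.01 (-0.08 with median centring). The NDH complex gene ndhH was at -0.61 and the ribosomal protein gene rps2 at 0.71. Of 4 flavonoid and anthocyanin genes, 3 were lower in both sets and none higher (median -0.18). DFR, the dihydroflavonol reductase of anthocyanin synthesis, was at -0.61 ± 0.25, with -0.35 and -0.86 in the sets, and at -1.14 at 22 °C.

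Of 7 flowering time genes, 4 were higher and none lower in both sets (median 0.27), among them LD (0.51), FY (0.27) and AGL19 (0.30), with no gene passing. The 3 tested jasmonate genes had a median of 0.28, and MYC4, a close relative of MYC3, was at 0.28. Of 6 glucosinolate genes 3 were lower in both sets and none higher. Besides AOP3 these were BCAT4 of methionine chain elongation, at -0.34 at 16 °C and 0.75 at 22 °C, and AOP1 at -0.12. Among salicylic acid and defence genes WRKY6 was at 0.49 and WRKY20 at 0.10, and the median of the 6 tested was -0.02. The cell cycle list (11 tested, median 0.01, and -0.07 with median centring) held HTB1 at 0.48 and TUB1 at -0.38.

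Smaller lists had medians between -0.08 and 0.17. They were stomatal lineage (3 tested, 0.17, with STOMAGEN at 0.32 and SPCH at 0.17), low sugar and energy (4 tested, -0.03), senescent leaf (3 tested, -0.04, with YLS5 at -0.49), gibberellin (3 tested, -0.07) and the reference genes (3 tested, -0.08, with GAPC2 at -0.08 and ACT11 at -0.13). The clock gene TIC was at 0.40. The root marker PYK10, a root beta-glucosidase gene, was at 0.56 ± 0.26, with 0.11 in set 1 and 1.00 in set 2; the part of root tissue in the other differences was not tested. No member was tested for 5 lists, namely brassinosteroid, abscisic acid, heat and chaperones, lipid transfer proteins and seed storage.

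**Figure D4:**
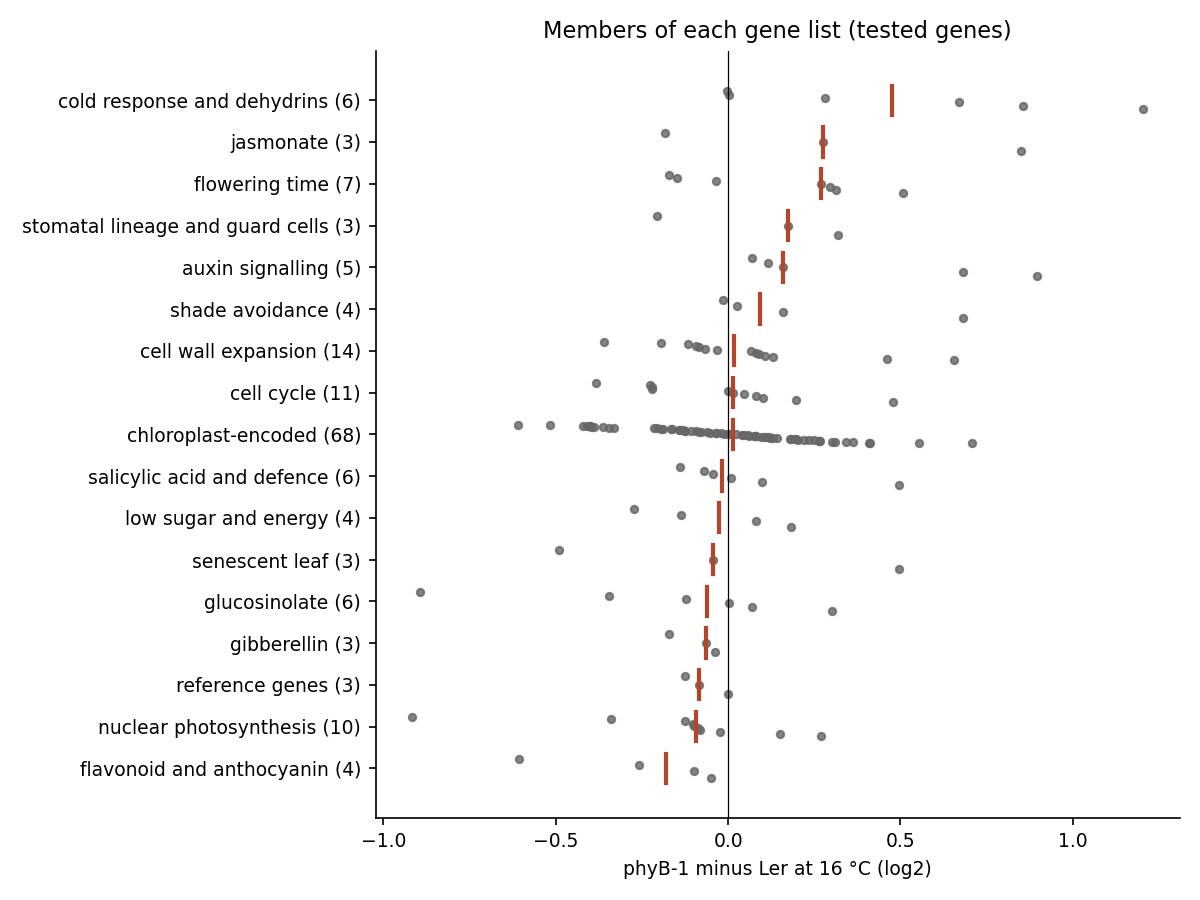
Difference phyB-1 minus Ler at 16 °C (x axis, log2) of the tested members of the 17 gene lists with at least 3 of them, 1 point per gene, with the number tested in brackets and the median as a red bar. Medians run from -0.18 (flavonoid and anthocyanin) to 0.48 (cold response and dehydrins), and LTI30 at 1.20 is the point farthest right.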

How the data were processed

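Total RNA of whole shoots was labelled with biotin by the one-cycle procedure and hybridised to ATH1 arrays, per the labels' protocols. The authors deposited linear intensity values, 1 per probe set and array; the submitters' processing notes name MAS5 and GCOS, with versions not given in the sources used here. The table has 22810 probe sets, 64 of them controls, which were left out. The trimmed mean was near 100 on every array (99.9487 to 99.9594), so the deposited scaling was kept. Depth does not apply; the number of arrays limits the precision.

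Intensities were taken as log2(intensity + 16) and averaged over both times within each genotype, temperature and replicate number. The upper 60% of probe sets by mean, 13648, were tested with limma 3.58.1 in R 4.3.3. The fit had 1 mean for each of 4 genotype and temperature groups of 2 values, with eBayes and an intensity trend (residual degrees of freedom 4, prior 7.6) and Benjamini-Hochberg adjustment over all tested probe sets. The script was checked on simulated data. Deviations of same-numbered values from their group means correlated at 0.238 to 0.551 in all 6 pairs of groups, so the replicate numbers of the labels were taken as pairing the samples, and the fit with replicate number as a block is given where it changes a call.

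Names came from the platform annotation, with symbols updated by RefSeq (TAIR10.1, 13436 matched). Of 22746 probe sets, 13513 had 1 gene, 503 several and 8730 none listed. Where a gene had several named probe sets, the one of highest mean stood for it. Named were up to 12 called genes each way by largest difference, filled to 12 with the smallest p among genes with the same sign in both sets and a mean difference of 1.5-fold; up to 4 members of smallest p of each of 29 lists with at least 2 tested members (the text gives those with the same sign in both sets); the 5 smallest p for the interaction; and at most 2 called probe sets without a name each way. The comparison, its members and the lists were chosen with earlier results of these data known. Figures were drawn with matplotlib 3.10.9. Alternatives covered the offset, the filter, the scaling, the variance model, the unit of replication, the block and each set left out in turn.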

Additional observations from a re-analysis of the deposited data

How the results depend on the processing

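The count of 3 called probe sets at 16 °C was 2 or 3, all higher in phyB-1, with offset 64, the upper 40% of probe sets, quantile normalization, median centring, both other variance models and all 16 arrays with times as labelled. It was 1 with offset 1, 1 without a filter, 0 (436 at an unadjusted p under 0.05) with the 16 °C arrays alone, 29 with the replicate block, and 1 to 44 with 1 set left out, 44 without set 1 of phyB-1 at 16 °C. The count of 1 at 22 °C was 0 with offset 1, 5 with offset 64, 4 with quantile normalization, 4 with median centring, 4 with all 16 arrays, 11 with the 22 °C arrays alone, 2 without an intensity trend, 24 with the replicate block, 33 with the block and without set 2 of phyB-1 at 16 °C (chosen after seeing the data), and 1 to 10 with 1 set left out. The interaction count of 0 was 0 to 26 with 1 set left out and 0 in its other alternatives. The 118 probe sets of 1.5-fold in both sets were 308 with offset 1, 29 with offset 64, 71 in the upper 40% of probe sets and 16 at 2-fold. Leaving out 1 set of 2 lets the remaining one stand alone, assumed to vary like the other groups. In the comparison of that set, a call then asks for no agreement between sets. The cause of these shifts was not tested further. The 24 genes named by p kept their direction in every alternative run. Of 1478 alternatives of 75 gene results, 14 turned direction, all of small differences. With 1 set left out IAA18 ranged from -0.0547 to 0.29, XTH33 from -0.39 to 7e-04, WRKY20 from -0.17 to 0.37, UF3GT from -0.53 to 0.0107, UGT78D1 from -0.22 to 0.0213, TUB6 from -0.48 to 0.0272, ACT11 from -0.30 to 0.0532 and GAPC2 from -0.27 to 0.10, and ACT11 was at 0.0035 with the block and without set 2 of phyB-1 at 16 °C. With the block, the calls at both temperatures stayed and others were added, and no other call changed.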
